A study of Xenopus laevis with 5 samples.

Results

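The homeobox transcription factor genes on the array were taken as the probe sets whose single platform gene symbol begins with hox, dlx, msx, lhx, nkx, irx, meis, pbx, ventx, cdx, tgif, emx, en1, en2, gbx, gsc, barx, hhex, hesx or vax, or names a six3 or six6 gene. The rule used names and no measured value. It gave 106 probe sets of the 15491 that are not controls, for 84 genes when the homeologs of the allotetraploid frog Xenopus laevis (.L and .S) are counted apart and 68 when they are joined. No barx probe set was among them, so 19 name prefixes were present, with en1 and en2 counted as 1. A further 3 probe sets matched the rule but carried several symbols and were left out.

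RNA came from epithelial explants, the presumptive ectoderm of Xenopus laevis embryos that had received synthetic mRNA at the 2-cell stage, encoding ICD (3 arrays) or HMM (2 arrays). Embryos were raised in 0.1X MMR, and both groups were cut at stage 9 to 10, cultured on fibronectin in Danilchik's medium with 0.1% BSA, and harvested at the equivalent of stage 22. The labels do not spell out ICD or HMM. The series title names Notch signalling, for which ICD commonly means the intracellular domain of the receptor, an activator, and HMM a truncated human Mastermind that blocks target activation. Both groups carry an injected RNA. Uninjected explants were not analysed here, and it cannot be told which group moved. Nothing in the labels says that the replicates came from separate batches of embryos, and p-values measure only the spread between these samples.

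Homeobox genes encode transcription factors that bind DNA through a homeodomain, a fold of helices of which the last lies in the major groove. In the frog embryo, BMP signalling turns on Dlx, Msx and Ventx genes in the ventral and epidermal ectoderm, while six3, hesx1, gbx2 and Iroquois genes divide the anterior ectoderm and the neural plate, and Hox and Cdx genes mark the trunk and tail. Meis, Pbx, Tgif and Iroquois proteins form the TALE class, named for extra residues in the homeodomain, and Meis and Pbx bind DNA together with Hox proteins. Setting ICD against HMM addresses which of these genes differ with Notch activity in epidermis.

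Values are MAS5 signals, a linear intensity per probe set and array that the authors scaled to a common trimmed mean. Median signal was between 62.1 and 72.7 on the 5 arrays. A probe set was tested where its signal exceeded 42.6 on at least 2 arrays, which 9981 of the 15491 did. On ICD replicate 1, the array with the lowest median, 25 of the 106 homeobox probe sets exceeded that level, against 32 on each of the other arrays. Counts over all probe sets were 8908 on that array and 9290 to 9463 on the others. Differences are ICD minus HMM of log2(signal + 5.9), a scale that understates changes of dim genes. Each adjusted p is from limma with Benjamini-Hochberg adjustment over all 9981 probe sets, and a call is an adjusted p under 0.05. A probe set said to rise or fall was called higher or lower in ICD than in HMM, whichever group moved.

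Most homeobox genes gave little or no signal in these epidermal explants. Of the 106 probe sets, 34 (32.1%), for 32 genes, passed the filter, where 64.4% of all probe sets and 70.3% of those with 1 symbol passed. All 6 dlx probe sets, all 3 tgif and the 1 pbx passed, as did 4 of 5 meis, 3 of 4 msx, 4 of 6 ventx, 2 of 3 gbx and 3 of 5 irx. So did 5 of 10 nkx, 1 of 2 hesx and 1 of 5 probe sets of six3 and six6. Among the 28 hox probe sets, for 21 genes, 1 passed. None of the 13 lhx (LIM homeobox), 3 cdx (posterior), 4 en (Engrailed), 3 vax, 3 gsc (Goosecoid), 1 emx or 1 hhex probe sets did, so 12 of the 19 prefixes had a measured member. Signals of different probe sets are not comparable as transcript levels, and whether dim signals came from the probes or the transcripts was not tested.

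**Figure D1:**
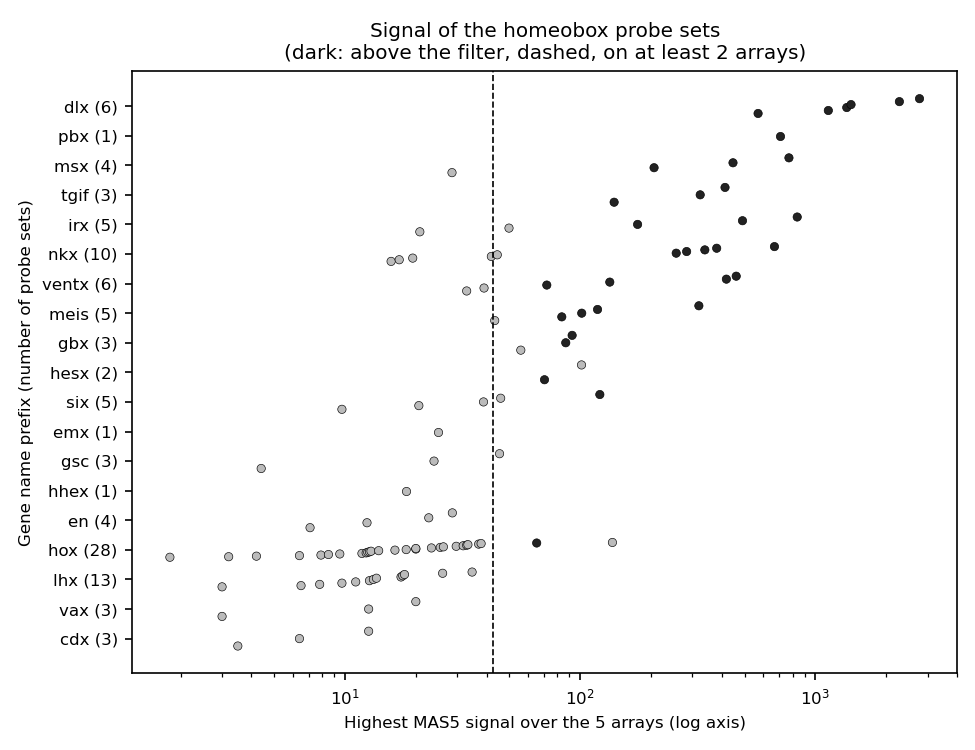
Highest MAS5 signal over the 5 arrays (log axis) for each of the 106 homeobox probe sets, by name prefix. Dark points exceeded 42.6 (dashed line) on at least 2 arrays. All dlx and tgif probe sets lie to the right of the line, while of the 28 hox probe sets 26 lie to its left.

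Most Hox probe sets were dim, whether of anterior, central or posterior paralogues. All 12 probe sets of the central paralogues (groups 4 to 8) stayed at or below 37.0 on every array, as did 11 of 12 of the posterior ones (groups 9 to 13) at or below the filter level. The exception was a probe set of hoxa11.S, a posterior gene, at 16.3, 36.6 and 46.7 in ICD and 65.3 and 20 in HMM, where the groups overlapped (difference -0.22, limma adjusted p = 0.868). The 4 probe sets of anterior paralogues (groups 1 to 3) were of hoxa2, hoxa3 and hoxd3 only. Among them hoxa3.S stood out. Its signals were 11.1, 11.3 and 18.6 in ICD and 40.4 and 137.1 in HMM, with every ICD array below both HMM arrays. With 1 array above the filter it did not pass the filter, and in the fit with no filter it was not called (difference -2.08, limma adjusted p = 0.0854).

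In all, 8 homeobox probe sets had 1 array above the filter. They were those of hoxa3.S, irx3.L, nkx3-3.S, gsc.L, hesx1.S, six3.S and meis1.S and the dimmer probe set of gbx2.2.L. The other 64 dim probe sets were at or below 42.6 on all arrays. For goosecoid, a gene of the organiser and later of neural crest, one gsc.L probe set gave 19.6, 45.4 and 30.7 in ICD and 9.2 and 13.1 in HMM. Its ICD arrays lay above the HMM arrays. The other gsc.L probe set lay the other way, at 3.1, 3.0 and 1.8 against 4.4 and 3.7, and the gsc.S probe set overlapped between groups. With no filter, none of the 72 dim homeobox probe sets was called.

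Within the 34 measured probe sets, both homeologs of tgif2 and the Iroquois gene irx1.L were called higher in ICD than in HMM. No homeobox probe set passed the test in the lower direction. The 3 calls are 8.82% of the 34. Over all 9981 probe sets 5.05% were called, 1.55% higher in ICD and 3.5% lower. With no adjustment, p was under 0.05 for 9 of the 34 higher in ICD and 7 of the 34 lower, together 47.1% of them. Over all probe sets the shares were 9.52% higher and 10.1% lower, together 19.6%. All ICD arrays lay above both HMM arrays for 9 of the 34 and below them for 7, together 47.1%. Over all probe sets 20.4% lay above and 17% below, together 37.5%. The median difference was 0.28, against 0.08 over all probe sets, and 20 of the 34 (58.8%) lay above 0, where 55.9% of all did. A dim probe set that passed the filter through 1 group had to differ. That held for 3 of the 34, all through HMM alone.

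**Figure D2:**
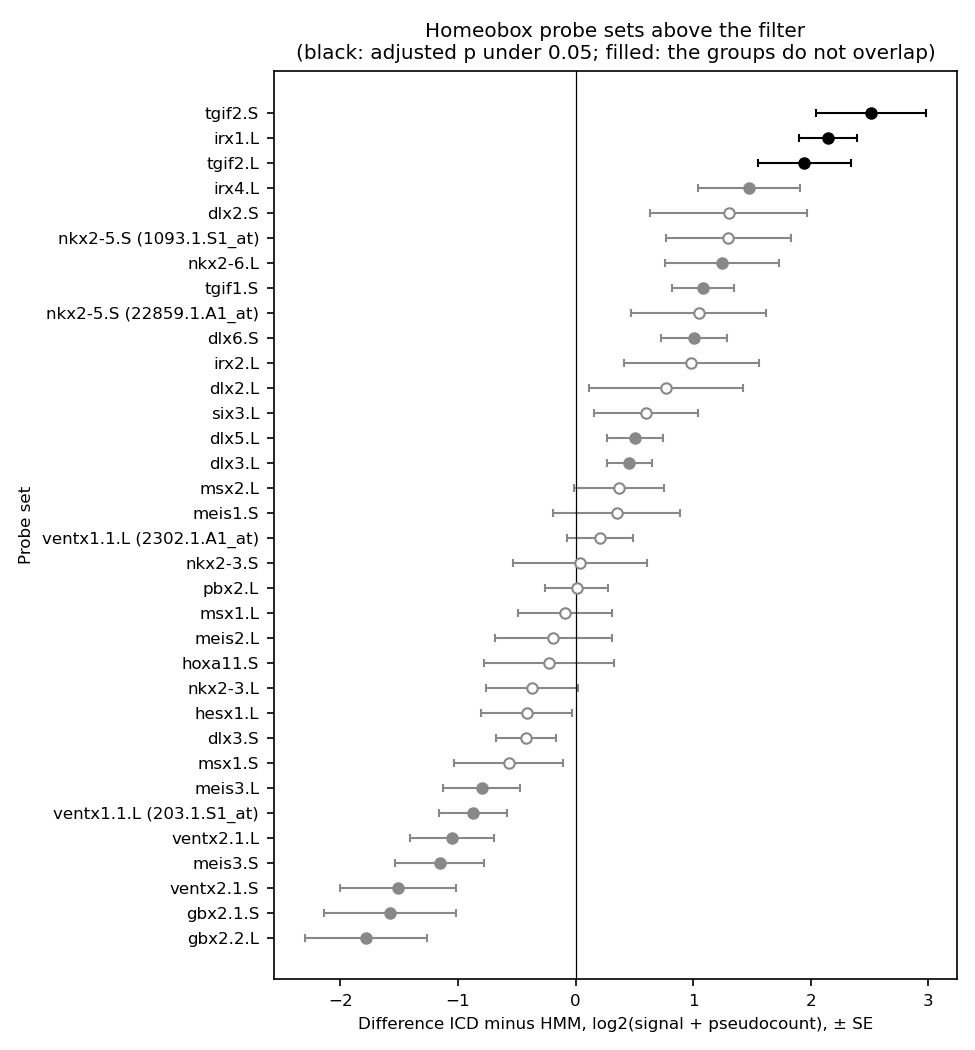
Difference ICD minus HMM of log2(signal + 5.9) with its SE for the 34 measured homeobox probe sets. Black points passed the adjusted threshold and filled points have groups that do not overlap. The 3 black points are tgif2.S, irx1.L and tgif2.L at the top, and the lowest points are the 2 gbx2 probe sets.

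Tgif proteins are homeodomain corepressors that restrain TGF-beta and Nodal target genes through Smad proteins. All 3 tgif probe sets read higher on every ICD array than on either HMM array. For tgif2.S the signals were 132.0, 270.5 and 412.9 in ICD and 44.9 and 32.5 in HMM. Its difference was 2.51 ± 0.47 (SE), or 5.70-fold (limma adjusted p = 0.0307). The homeolog tgif2.L read 136.2, 210.1 and 323.8 in ICD and 59.3 and 42.4 in HMM. It was higher in ICD by 1.95 ± 0.39 (SE), or 3.85-fold (limma adjusted p = 0.0369). In both homeologs ICD replicate 1 was the lowest of the ICD arrays and replicate 3 the highest. The related gene tgif1.S was more even, at 139.4, 123.6 and 110.5 in ICD and 58.3 and 52.6 in HMM, with a difference of 1.08 ± 0.26 (SE) that did not pass (limma adjusted p = 0.0663). Neither tgif2 homeolog was called without ICD replicate 2 (differences 1.95 for .L and 2.44 for .S), ICD replicate 3 (1.64 and 2.14), HMM replicate 1 (2.16 and 2.71) or HMM replicate 2 (1.73 and 2.31). Without ICD replicate 1 they were called at 2.25 and 2.95, and tgif2.L was not called with no filter on low values (limma adjusted p = 0.0503).

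Iroquois genes pattern the neural plate, the placodes and other epithelia. The probe set of irx1.L gave 471.0, 489.9 and 404.9 in ICD and 90.0 and 106.0 in HMM. Each group was tight and the gap between them wide. The means were 455 ± 44.6 (SD, n = 3) and 98.0 ± 11.3 (SD, n = 2), and the difference of 2.15 ± 0.25 (SE), 4.44-fold, had the smallest p among the homeobox probe sets (limma adjusted p = 0.0131). The call held without HMM replicate 1 or either of ICD replicates 1 and 3, and was lost without ICD replicate 2 (2.10, limma adjusted p = 0.0606) or HMM replicate 2 (2.26, limma adjusted p = 0.102).

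The other measured Iroquois genes, irx4.L and irx2.L, had differences of the same sign that did not pass. For irx4.L, known from heart and retina, the ICD arrays gave 83.8, 82.8 and 175.4 and the HMM arrays 24.8 and 47.8, without overlap (difference 1.48 ± 0.43 SE, limma adjusted p = 0.112). For irx2.L the ICD values were 289.8, 827.1 and 837.2 and the HMM values 181.9 and 471.3. Replicate 1 was the lower array in both groups, so the groups overlapped, and the difference was 0.98 (limma adjusted p = 0.406). Both irx3.L and irx5.L were dim, at 28.6 to 49.8 and 1.1 to 20.8 over the 5 arrays. With no filter their differences were 0.05 and -0.54, with overlapping groups.

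**Figure D3:**
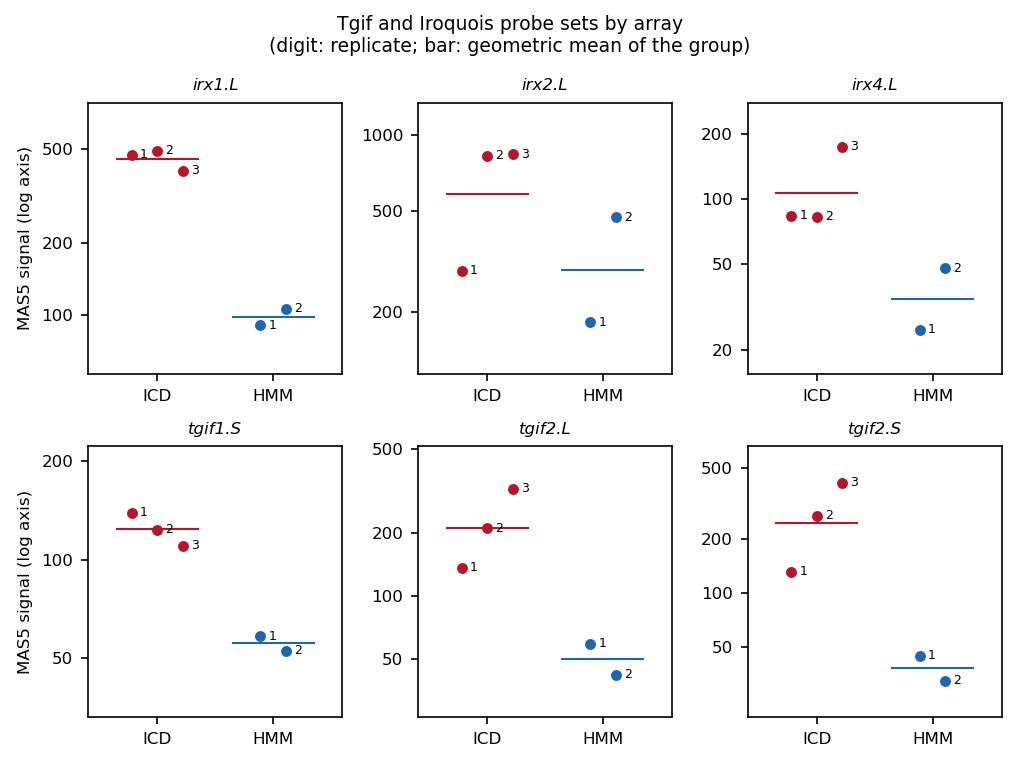
MAS5 signal (log axis) of the 6 measured Iroquois and Tgif probe sets on each ICD and HMM array. Digits mark the replicate and bars the geometric mean of the group. The groups are apart in all panels other than irx2.L, where ICD replicate 1 reads 289.8 and HMM replicate 2 reads 471.3.

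The Dlx genes are Distal-less homologues, and dlx3, dlx5 and dlx6 are early genes of the non-neural ectoderm and its border with the neural plate. None of the 6 dlx probe sets passed the test, and 5 of their differences were above 0. The clearest was dlx6.S, with 1135.3, 840.6 and 664.7 in ICD and 401.0 and 447.5 in HMM and no overlap (difference 1.01 ± 0.28 SE, limma adjusted p = 0.100). For dlx5.L the ICD arrays gave 1168.7, 1418.0 and 1403.6 and the HMM arrays 781.6 and 1110.6. All ICD arrays again lay above the HMM arrays, by a narrow margin (difference 0.51, 95% confidence interval -0.06 to 1.07, limma adjusted p = 0.307).

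The homeologs of dlx3, a regulator of epidermal differentiation, had differences of opposite sign. For dlx3.L the signals were 1849.3, 2276.6 and 2061.9 in ICD and 1571.9 and 1423.1 in HMM, a difference of 0.46 (limma adjusted p = 0.249). For dlx3.S they were 1894.5, 1368.1 and 1907.7 in ICD and 2772.5 and 1880.9 in HMM, a difference of -0.42 (limma adjusted p = 0.423). Neither passed.

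The gene dlx2, known from forebrain, neural crest and branchial arches, had overlapping groups with both homeologs. Its .L probe set gave 341.8, 1359.7 and 691.2 in ICD and 223.9 and 710.7 in HMM (difference 0.77, limma adjusted p = 0.576). The .S probe set gave 124.0, 570.7 and 249.6 in ICD and 60.5 and 171.2 in HMM (difference 1.30, limma adjusted p = 0.347). In both, replicate 1 was the lowest array of its group and replicate 2 the highest. Without HMM replicate 1 the difference of dlx2.L was -0.05.

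Msx proteins are repressors downstream of BMP in epidermis and neural border. Their differences were small beside the spread of the ICD arrays. For msx1.L the ICD arrays gave 772.0, 368.7 and 308.6, on both sides of the HMM arrays at 499.9 and 447.9 (difference -0.09, 95% confidence interval -1.03 to 0.86). The homeolog msx1.S read 204.2, 122.9 and 64.1 in ICD and 152.7 and 206.1 in HMM (difference -0.57, limma adjusted p = 0.558). In both homeologs ICD replicate 1 was the highest ICD array and replicate 3 the lowest. For msx2.L one probe set gave 446.4, 433.5 and 202.2 in ICD and 277.8 and 246.1 in HMM (difference 0.37, limma adjusted p = 0.648), and the other was dim.

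The Ventx genes, ventral repressors that respond to BMP, lay on the other side of 0 in 3 of their 4 measured probe sets. None passed the test. For ventx2.1.S the ICD arrays gave 318.2, 103.1 and 104.3 and the HMM arrays 422.9 and 460.7 (difference -1.51 ± 0.50 SE, limma adjusted p = 0.146). ICD replicate 1 stood far above the other ICD arrays, and without it the difference was -2.03 and passed (limma adjusted p = 0.00596). The homeolog ventx2.1.L gave 41.5, 54.2 and 36.8 in ICD and 69.8 and 133.6 in HMM (difference -1.05, limma adjusted p = 0.161).

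The 2 measured probe sets of ventx1.1.L did not match each other. The dimmer one read 30.2, 36.1 and 34.1 in ICD and 60.5 and 72.1 in HMM, with a difference of -0.87 (limma adjusted p = 0.148). The brighter one read 269.3, 418.4 and 302.1 in ICD and 255.9 and 306.8 in HMM, with overlapping groups and a difference of 0.21 (limma adjusted p = 0.738). The dimmer probe set passed the filter through HMM alone. Below the filter, ventx2.2.L gave 11.5, 13.4 and 11.8 in ICD and 21.8 and 32.9 in HMM, and ventx3.2.S gave 18.4, 17.3 and 20.8 against 39.0 and 24.9. Both had all ICD arrays below the HMM arrays.

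Gbx2 proteins set the position of the midbrain-hindbrain boundary and act in the posterior ectoderm. The gbx2 probe sets had the lowest differences among the measured homeobox probe sets, at dim signals. For gbx2.2.L the ICD arrays gave 17.1, 7.2 and 37.4 and the HMM arrays 86.8 and 64.9 (difference -1.78 ± 0.52 SE, limma adjusted p = 0.112). For gbx2.1.S they gave 16.3, 7.7 and 39.0 against 92.4 and 45.6 (difference -1.58 ± 0.56 SE, limma adjusted p = 0.178). The second gbx2.2.L probe set, which did not pass the filter, gave 16.5, 9.6 and 35.6 against 55.9 and 38.5. All 3 had every ICD array below both HMM arrays, with ICD replicate 2 lowest and replicate 3 nearest to HMM. Both tested probe sets passed the filter through HMM alone, so a difference in this direction was built into their selection.

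Meis proteins are Hox cofactors, and meis3 acts in hindbrain patterning in Xenopus. Both meis3 homeologs lay lower on all ICD arrays than on the HMM arrays. For meis3.S the signals were 97.2, 93.9 and 198.6 in ICD and 244.4 and 319.6 in HMM (difference -1.16 ± 0.38 SE, limma adjusted p = 0.146). For meis3.L they were 31.1, 41.1 and 57.0 against 83.5 and 71.6 (difference -0.80, limma adjusted p = 0.240). The paralogues overlapped between groups. The gene meis2.L read 37.4, 56.9 and 118.5 in ICD and 53.7 and 99.9 in HMM (difference -0.19), and meis1.S read 32.7, 101.5 and 75.5 against 30.0 and 77.3 (difference 0.35). The cofactor gene pbx2.L gave 496.5, 689.6 and 643.3 in ICD and 507.2 and 710.1 in HMM, a difference of 0.01 with a 95% confidence interval of -0.62 to 0.64.

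**Figure D4:**
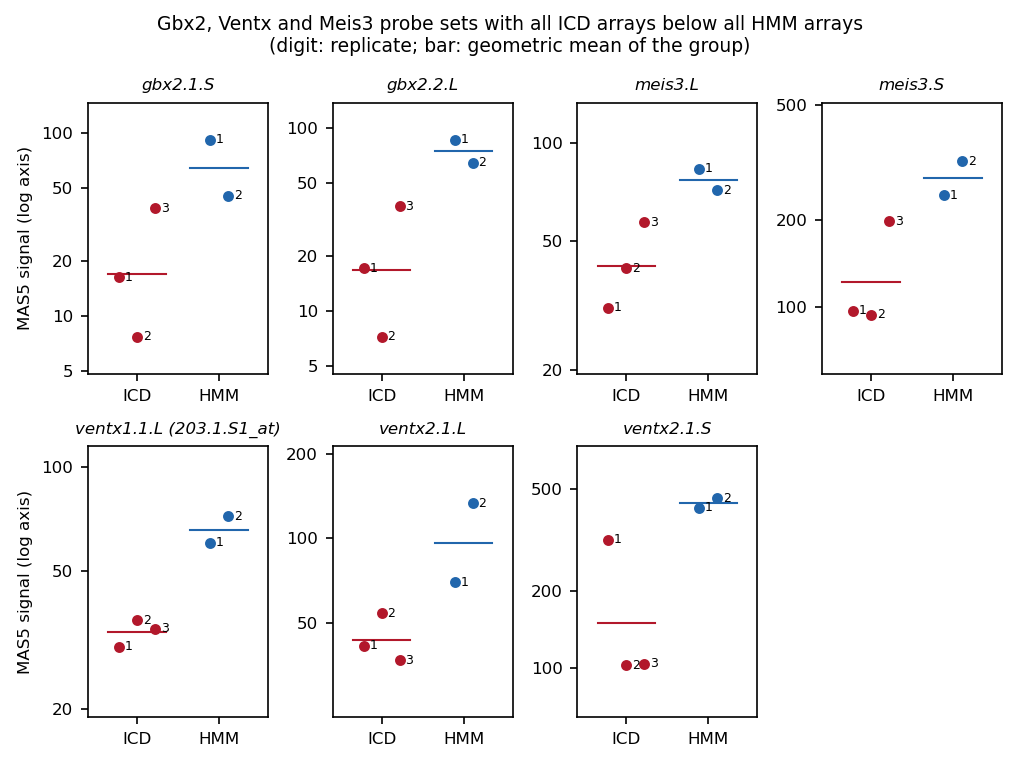
MAS5 signal (log axis) on each array for the 7 measured homeobox probe sets whose ICD arrays all lie below the HMM arrays, all of gbx2, meis3 or ventx genes. Digits mark the replicate and bars the geometric mean of the group. In ventx2.1.S, ICD replicate 1 at 318.2 lies close to the HMM arrays at 422.9 and 460.7. None of the 7 passed the adjusted threshold.

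Nkx genes of the tinman group are known from heart precursors and pharyngeal endoderm. Their probe sets nkx2-5.S and nkx2-6.L shared a profile in which ICD replicates 2 and 3 were high. One nkx2-5.S probe set gave 109.3, 238.7 and 338.8 in ICD and 121.6 and 52.9 in HMM (difference 1.30, limma adjusted p = 0.236). The other gave 94.0, 236.8 and 283.5 against 145.6 and 50.8 (difference 1.05, limma adjusted p = 0.380). For nkx2-6.L the values were 80.1, 210.0 and 256.0 against 74.2 and 58.0, without overlap (difference 1.24, limma adjusted p = 0.216). Without ICD replicate 1, nkx2-6.L (1.73, limma adjusted p = 0.0124) and the first nkx2-5.S probe set (1.75, limma adjusted p = 0.0351) passed. The homeologs of nkx2-3 overlapped between groups. Their signals were 158.8, 309.2 and 380.5 in ICD and 371.6 and 320.6 in HMM for .L (difference -0.37), and 156.0, 437.9 and 669.9 against 402.9 and 302.4 for .S (difference 0.04). As with nkx2-5.S, ICD replicate 1 was the lowest ICD array in each. The other 5 nkx probe sets were below the filter.

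Among regulators of the anterior neural plate, six3.L exceeded the filter level on 4 arrays and hesx1.L on 3. Not all such genes were near the filter, since a probe set of otx2.L, outside the name rule, read 157.0 to 803.1. The gene six3.L, which acts in eye and forebrain, read 52.9, 121.2 and 73.5 in ICD and 33.7 and 71.8 in HMM (difference 0.60, limma adjusted p = 0.516). The repressor gene hesx1.L read 30.5, 64.2 and 36.1 against 46.5 and 70.5 (difference -0.41, limma adjusted p = 0.612). The groups overlapped for both. The 4 probe sets of six3.S and the six6 homeologs did not pass the filter.

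Both homeologs were measured for 7 of these genes, which allowed each array's .L signal to be set against its own .S signal. The differences had the same sign in 5 of the 7 pairs and opposite signs for dlx3 and nkx2-3. Over all 690 such pairs on the array 26.4% had opposite signs. The .L minus .S value of dlx3 was -0.03, 0.73 and 0.11 in ICD and -0.82 and -0.40 in HMM, on the log2 scale, so that the ICD arrays lay above the HMM arrays. For tgif2 it was 0.04, -0.36 and -0.35 in ICD and 0.36 and 0.33 in HMM, with the ICD arrays below and the .S difference the larger. The dlx2 values were 1.42, 1.24 and 1.45 in ICD and 1.79 and 2.02 in HMM, also without overlap. Such separation was seen in 27.8% of the 690 pairs. A two-sided exact permutation test gave p = 0.2 for dlx2, dlx3 and tgif2, the smallest that 3 arrays against 2 allow, and 0.467 after Benjamini-Hochberg adjustment over the 7 pairs. Probes of one homeolog may also detect the other, which was not tested.

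**Figure D5:**
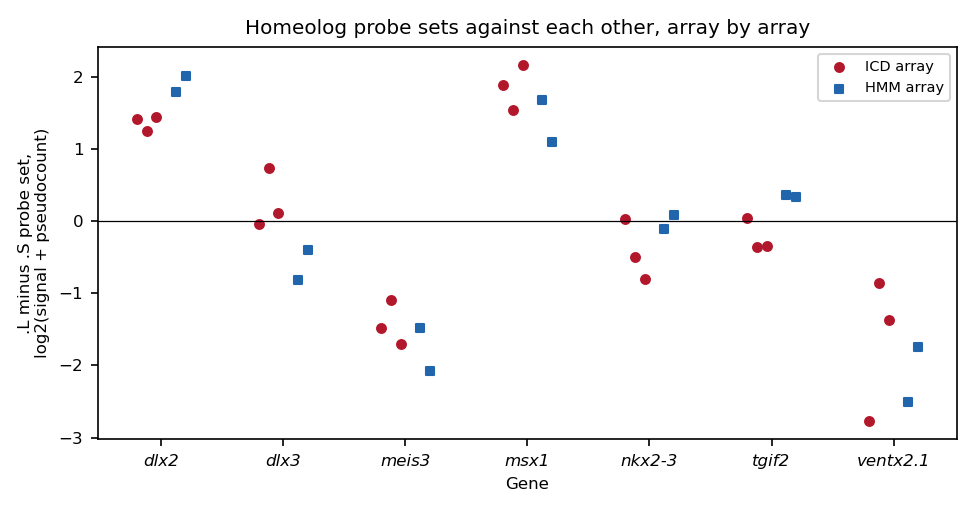
The .L minus .S difference of log2(signal + 5.9) on each array for the 7 homeobox genes with both homeologs measured. ICD arrays are circles and HMM arrays squares. The groups are apart for dlx2, dlx3 and tgif2 and overlap for meis3, msx1, nkx2-3 and ventx2.1.

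Homeobox genes with other name prefixes were measured by 49 probe sets of 29 genes, 19 of them above the filter. Of the 19, 4 rose and 1 fell, and 5 passed the filter through 1 group alone (4 through ICD and 1 through HMM). Calls were 26.3% of the 19, where 5.05% of all probe sets were called. That share rests on probe sets that passed the filter through 1 group alone, and 3 of the calls were of 1 gene, pax6.L. Among the 14 that passed through both groups, only otx1.L was called. An unadjusted p under 0.05 was found for 52.6%, against 19.6% of all probe sets. Those with such a p but no call were pitx1.L (2.03), otx2.L (1.55 and 1.58), crx.L (1.40) and pou2f1.S (1.27), all measured through both groups. The eye and neural gene pax6.L rose in 3 of its 4 measured probe sets, by 2.69, 2.41 and 2.09, and the remaining one differed by 0.71 and did not pass. The 3 that rose passed the filter through ICD alone, so a difference in this direction was built into their selection, and with no pseudocount it was 3.69, 3.54 and 2.60. In the first of these the ICD arrays read 37.5, 85.8 and 81.8 and the HMM arrays 4.0 and 6.2, and leaving out any array but ICD replicate 1 ended these calls, at differences of 2.49 to 3.03, 2.21 to 2.72 and 1.74 to 2.44 with each array left out. The head gene otx1.L was the other that rose (1.84), a call that ended when HMM replicate 2 (1.49), ICD replicate 2 (1.83) or ICD replicate 3 (1.65) was left out. The gene hmx3.L, known from the ear and neurons, was the one that fell, with a difference of -2.96. It read 2.6, 6.3 and 12.9 in ICD and 52.8 and 155.7 in HMM. It passed the filter through HMM alone, and it was not called with no pseudocount or when HMM replicate 2 or ICD replicates 2 or 3 were left out (-3.69 to -2.23 over the 5 arrays left out in turn).

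Signals that act upstream of homeobox genes were mixed. Of 34 measured probe sets on a list of BMP pathway genes, 1 rose, none fell and the median difference was -0.05, where 8 (23.5%) had an unadjusted p under 0.05, a share near the 19.6% of all probe sets. The riser was smad6.L, an inhibitor of BMP signalling, at 521.8, 519.6 and 387.9 in ICD and 172.5 and 183.1 in HMM (difference 1.38, limma adjusted p = 0.0299). The ligand gene bmp2.L, which passed the filter through ICD alone (2.07, limma adjusted p = 0.0587), and the BMP target id2.S (-0.97, limma adjusted p = 0.0663) did not pass. All 13 measured probe sets of Wnt and FGF genes had differences above 0, where 55.9% of all probe sets did. Of the 13, 4 passed the filter through ICD alone, a selection that favours this sign. The 13 are for 8 genes, with Wnt antagonists (dkk1.S and sfrp2.S) as well as ligands and receptors. They also include axin2 and tcf7l1, which encode neither ligands nor receptors. None passed in limma. An unadjusted p under 0.05 was found for 7 (53.8%), above the 19.6% of all probe sets. These were led by the receptor genes fgfr1.L (1.35) and fgfr4.L (1.25, and 1.56 for a probe set measured through ICD alone).

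Among 8 measured probe sets of the retinoic acid pathway, which sets Hox expression, 1 rose. It was crabp2.L, a retinoic acid binding protein gene, at 278.3, 357.1 and 338.9 in ICD and 82.1 and 82.8 in HMM (difference 1.90, limma adjusted p = 0.0163). The degradation gene cyp26c1.S (1.35) and the receptor gene rarg.S (0.63) did not pass. Calls were 12.5% of the 8, where 5.05% of all probe sets were called. An unadjusted p under 0.05 was also found for 12.5%, against 19.6% of all probe sets. The eya and Groucho (tle) families include partners and corepressors of homeodomain proteins. Of their 5 measured probe sets, tle5.L rose (1.38, limma adjusted p = 0.0321). The others, tle5.S (0.82), eya3.L (0.61), tle2.L (0.59) and tle4.S (-0.38, measured through HMM alone), did not pass. Calls were 20% of the 5, against 5.05% of all probe sets, and 60% had an unadjusted p under 0.05, against 19.6%. Whether the tle5.L product acts as a corepressor was not tested. A list of Polycomb and Trithorax genes, keepers of Hox silencing and activity, had 9 measured probe sets, and none passed in limma. They were of ezh2.L, suz12, ring1.L, rnf2.L, phc2.L, and the eed and asxl1 homeologs, mostly Polycomb genes. An unadjusted p under 0.05 was found for 2 (22.2%), near the 19.6% of all probe sets. The differences with the smallest p were 1.12 for eed.S, 0.83 for suz12 and 0.84 for eed.L. The calls of smad6.L, crabp2.L and tle5.L ended when HMM replicate 2 or either of ICD replicates 2 and 3 was left out, and those of smad6.L and tle5.L also when HMM replicate 1 was. Over the arrays left out in turn the differences were 1.31 to 1.52 for smad6.L, 1.83 to 2.00 for crabp2.L and 1.25 to 1.48 for tle5.L.

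The explants differed between groups in the markers of several cell types, and in whole explants fewer cells of a type and less RNA per cell cannot be told apart. Ionocyte markers fell in all 8 probe sets, their summed signal being 154.3 to 294.2 in ICD and 9849.1 to 18701.5 in HMM, and 5 of the 8 passed the filter through HMM alone. Of 11 multiciliated cell probe sets 10 fell, with sums of 552.2 to 1675.3 and 6172.3 to 11493.5, and 1 of the 11 passed the filter through HMM alone. Over all probe sets 3.5% were called lower in ICD and 1.55% higher. Of 13 probe sets of epidermal markers 6 rose and none fell, with sums of 39900.8 to 50895.7 and 33742.1 to 37632.3. Those that rose were of the krt18.1 and krt19 homeologs, epcam.L and tp63.L. Differences were below 0 for 5 others, of the krt12.4 homeologs, grhl1.L, grhl3.L and itln1.L. A sum follows its brightest probe sets, which for epidermis include those of itln1.L and krt12.4.L. Cement gland markers, 3 of 6 risen, summed to 25870.4 to 32697.9 in ICD and 11974.8 to 13506.2 in HMM.

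Of the markers of tissues that were not meant to be in the explant, 7 of 13 neural plate probe sets passed the filter and 1 rose (sums 1451.5 to 2258.7 in ICD and 603.5 to 897.1 in HMM). That one was sox11.S, which made up much of the sum in ICD, at 1016.7, 930.9 and 1256.9, against 380.2 and 197.7 in HMM. For neural crest 4 of 12 passed the filter and none was called (1749.7 to 5219.9 and 1865.5 to 3808.1). Probe sets of pax3.L made up much of these sums. The others were snai1.S (2.67, limma adjusted p = 0.0681) and snai2.S (1.31, limma adjusted p = 0.14, measured through ICD alone). Both lay higher on every ICD array. An unadjusted p under 0.05 was found for 50% of the 4, where 19.6% of all probe sets had one. Of 16 mesoderm and muscle probe sets 13 were at or below the filter level on all arrays, and 1 rose (766.1 to 1140.4 and 401.5 to 502.7). The 3 measured ones were all of ckm.L, a muscle creatine kinase gene. For endoderm 6 of 10 were that dim and none was called (720.7 to 1593.7 and 1043.2 to 2216.7). Calls were 14.3% of the 7 measured for neural plate and 33.3% of the 3 for mesoderm and muscle, where 5.05% of all probe sets were called. No marker probe set was listed at 0. Which of these cells expressed tgif2, irx1.L or the other homeobox genes, and the part of cell composition in their differences, were not tested.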

How the data were processed

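The authors deposited linear signal intensity values made with MAS5, per the submitters' processing notes, with no version given. MAS5 subtracts mismatch signal, which makes dim values unstable, and scales away differences in total RNA. Of 15611 probe sets, 120 controls were left out. The platform annotation gave 1 symbol to 9304, several to 195 and none to 5992. A RefSeq gene table (Xenopus_laevis_v10.1) held 99 of the 106 homeobox probe sets and changed no symbol. Signals were tested as log2(value + 5.9), the 10th percentile, with a filter at the 40th percentile (42.6) on at least 2 arrays. The fit was limma lmFit and eBayes with trend (limma 3.58.1, R 4.3.3), two-sided, on 5 arrays without covariates, and was tested on simulated data. Homeolog tests used scipy 1.17.1 and figures matplotlib 3.10.9.

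The members, gene lists and tests were chosen with earlier results of these data known. Named genes were to be the called probe sets, the 8 smallest p in each direction, the ectodermal dlx, msx, ventx and irx genes (a further item of this rule is not reported here), and for pathway lists the called and the 3 smallest p. All 34 measured members, some markers and some further genes of the pathway lists were then named after their values had been seen. Marker lists are given as counts and sums. The fit was repeated with arrays quantile-normalized or centred on their medians, with the pseudocount dropped (values of 0 set to 0.1) or made 4 times as large, without the filter or with it at 110.7 (the 60th percentile), with eBayes robust or lacking the trend, leaving out each array, and with a replicate block. No sequences are shown, since none were used here.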

Additional observations from a re-analysis of the deposited data

How the results depend on the processing

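Under all 9 alternatives that keep the 5 arrays or pair them, irx1.L and tgif2.S were called higher in ICD. The same held for tgif2.L with the exception of no filter (limma adjusted p = 0.0503). A changed filter or eBayes setting refits the same log2 values, so it could change a call but not a direction. With an ICD array left out, the homeobox probe sets called higher ranged from 0 to 5 and those called lower from 0 to 1. The fit to all arrays gave 3 and 0. Calls over all probe sets, higher and lower, were 155 and 349 in the fit to all arrays. They were 362 and 481 without ICD replicate 1, 1 and 21 without replicate 2, and 30 and 121 without replicate 3. Homeobox calls lost or gained with an ICD array left out thus came with fewer or more calls over all probe sets. Fits with 4 arrays have fewer residual degrees of freedom, and with HMM replicate 1 or 2 left out the lone HMM array is assumed to vary like ICD. The median difference of the homeobox probe sets was -0.0468 with no filter, which adds 72 dim members, against 0.28.

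Of the 34 differences, 27 kept their sign under every alternative in which they were tested. Of these, 19 did so under all 14 and 8 under 13, since the filter at the 60th percentile left those 8 out. Not all 14 could change a sign. A changed filter or eBayes setting leaves each difference as it is (0.77 for dlx2.L in each). The block gives the same difference as leaving out ICD replicate 3 (0.76 for dlx2.L in both). The other 7 changed sign with an array left out, with ranges of -0.0509 to 1.59 (dlx2.L), -0.95 to 0.50 (hoxa11.S), -0.26 to 0.96 (meis1.S), -0.61 to 0.23 (meis2.L), -0.48 to 0.17 (msx1.L), -0.41 to 0.63 (nkx2-3.S) and -0.23 to 0.25 (pbx2.L). With the replicate block msx1.L was 0.17, nkx2-3.S -0.41 and pbx2.L -0.0362. The causes were not tested.

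The replicate number as a block, on the 4 arrays of replicates 1 and 2, called 10 homeobox probe sets higher and 3 lower, and 739 higher and 984 lower of all probe sets (155 and 349 without it). The homeobox calls it added were of dlx2.L (0.76, limma adjusted p = 0.0389), dlx2.S (1.34, limma adjusted p = 0.0138), dlx6.S, irx2.L, irx4.L, msx2.L and tgif1.S, all higher, and of gbx2.1.S, gbx2.2.L and meis3.S, all lower. Deviations from the group means correlated across all tested probe sets at 0.651 for the arrays numbered 1 and 0.508 for those numbered 2. Across the 34 homeobox probe sets the values were 0.062 and 0.449. ICD replicate 3 correlated with HMM replicate 2 at 0.4 across all tested probe sets and at -0.319 across the homeobox ones. With 2 HMM arrays these deviations mirror each other, the labels do not pair the arrays, and the block leaves 1 residual degree of freedom. The number of arrays and the signal near background limit what could be detected for the dim genes.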

Other observations

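The 3 probe sets left out for their several symbols gave the following values. The one shared by ventx2.1.L and ventx2.2.L read 394.5, 384.2 and 364.0 in ICD and 625.6 and 769.5 in HMM, a difference of -0.86 ± 0.23 (SE) that did not pass (limma adjusted p = 0.0891). All ICD arrays lay below both HMM arrays, as they did for the probe sets of ventx2.1.L and ventx2.2.L alone. The one shared by the gsc homeologs read 11.1, 25.2 and 27.2 in ICD and 19.3 and 13.9 in HMM, and the one shared by the hoxa2 homeologs 8.9, 12.1 and 7.7 against 20.1 and 10.4. Both were too dim to pass the filter, and the groups overlapped.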
